A study of Homo sapiens with 9 samples.

Results

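The genes examined here are the translation initiation factor genes, measured in MDA-MB-231, a cell line established from a breast cancer of the triple-negative kind. A gene was a member when it was protein-coding and its name began with EIF, so the kinases of eIF2 (EIF2AK) and the binding proteins of eIF4E (EIF4EBP) were included. By this rule 54 genes were members, of 27615 genes and 15979 protein-coding genes in the deposited lists. RNA had been sequenced from cells treated with vehicle (DMSO), with rimonabant, an antagonist of the cannabinoid receptor CB1, or with TXX-1-10, a compound derived from rimonabant, and each treatment had 3 libraries. No genetic change was made to the line for these libraries, and the sources used here do not give the dose or how long these cells were treated. Nothing in the labels says that the 3 libraries of a treatment came from separate cultures, so the p-values measure the spread between these libraries, which may be technical.

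The library total behind the deposited FPKM values (reads scaled to exon length and to the library total) was 17078370 to 19277808. Every list ended partway through a line, with genes running from high to low counts, so a gene missing from a list is unknown and not at 0. Of the 54 members, 38 were listed for all 9 libraries, 12 were missing only from rimonabant replicate 1, whose list was the shortest, and 4 were missing from more. Rimonabant replicate 1 and TXX-1-10 replicate 3 stood apart from their fellow replicates, in that their counts relative to the other replicates decreased as genes got longer (Spearman's rho -0.693 and -0.692 over genes). Many of the results that change without them, though not all, are given with both values. The mesenchymal markers VIM (224 to 329 FPKM) and MSN (239 to 272 FPKM) were high in every library. CAV1 (20.8 to 145 FPKM) and KRT18 (39.5 to 76.9 FPKM) varied more between libraries. ESR1 and PGR were at no more than 0.0459 FPKM where listed. ERBB2 was not that low, at 6.996 to 9.52 FPKM in all 9 libraries, and EPCAM was at 4.47 to 5.37 FPKM in 7. Of the markers of other cells, PTPRC (leukocytes), PECAM1 (endothelium) and COL1A2 (fibroblasts) were at no more than 0.172 FPKM where listed. COL1A1 was at 0.310 to 0.798 FPKM.

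Initiation is the stage of translation at which a ribosome is brought to an mRNA and set on its start codon. The factor eIF2 carries the initiator tRNA to the small ribosomal subunit, eIF3, eIF1 and eIF1A hold that subunit open for scanning, eIF4F (eIF4E, eIF4G and eIF4A) ties it to the capped end of the mRNA, and eIF5 and eIF5B act when the start codon is found and the large subunit joins. The process is restrained at a pair of well-known points. Kinases that phosphorylate eIF2 make it block its own exchange factor, eIF2B, and the 4E-binding proteins keep eIF4E away from eIF4G.

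The start codons of the members themselves are shown first, because EIF1 and EIF5 encode the factors that set how strictly a start codon is chosen, and these were among the members with the largest differences. In each line the start codon is in capitals, with 6 bases before it and 1 after it, read 5′ to 3′ from GENCODE release 29 (GRCh38), and the position is that of the first base of the codon. The first group holds EIF1, its paralogue EIF1B and EIF3B, which had neither a purine 3 bases before the codon nor G just after it. The second holds members with a purine at that place, EIF5 and the near-identical pair EIF5A and EIF5AL1.
EIF1 (chromosome 17, position 41689039, + strand): tatcgtATGt
EIF1B (chromosome 3, position 40309942, + strand): tatcgcATGt
EIF3B (chromosome 7, position 2354922, + strand): gggcccATGc
EIF5 (chromosome 14, position 103335861, + strand): gccaaaATGt
EIF5A (chromosome 17, position 7309636, + strand): cttaaaATGg
EIF5AL1 (chromosome 10, position 79512650, + strand): cttaaaATGg
Of the 49 members with an annotated start codon that were listed for all libraries or all but rimonabant replicate 1, 43 (87.8%) had a purine at that place, against 87.1% of the 8843 such genes. Both features were lacking in 3 of the 49 members (6.12%), against 5.87% of those genes.

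In vehicle-treated cells the 38 members listed for all libraries had a median level of 41.3 FPKM, against 20.5 FPKM for all genes in the 9 lists, and 31 of them were above that median. Levels are per length of all annotated exons of a gene, so comparisons between genes carry the uncertainty of that length. EIF5A, which helps the ribosome past difficult peptide bonds, was highest (339.7, 343 and 337 FPKM in the 3 libraries), followed by EIF4H, a helper of the eIF4A helicase (211 ± 2.83 FPKM, SD, n = 3), EIF4G1, the scaffold of eIF4F (151 ± 2.11 FPKM), and EIF6, which keeps the large subunit apart (135 ± 3.80 FPKM). EIF2D, an alternative carrier of tRNA to the ribosome, was lowest of the 38 (9.07 ± 0.116 FPKM), and the range from highest to lowest was 37.4-fold. Vehicle replicates lay close together, with a median coefficient of variation of 2.66% over the 38 members. Of the 37 neighbouring pairs in this order, 18 had ranges that did not overlap. EIF4A2, EIF3I and EIF1 (114, 113 and 111 FPKM) followed EIF6 and had overlapping ranges, as did the neighbours EIF3G, EIF3E and EIF2S3 further down.

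**Figure D1:**
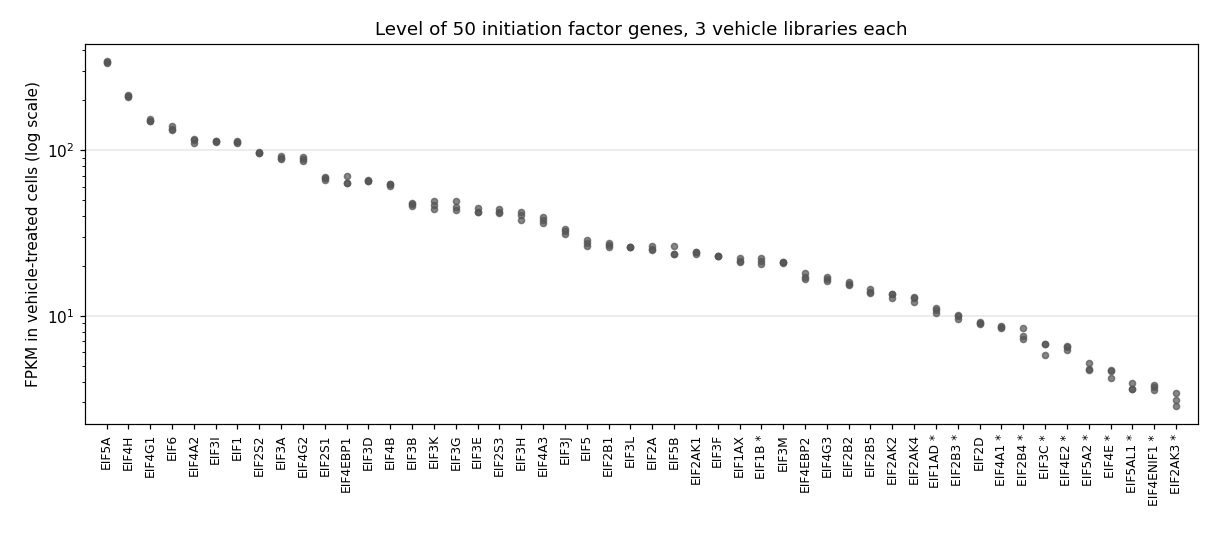
The FPKM of 50 members in vehicle-treated cells on a log scale, 1 point per library (n = 3), ordered by mean level, with an asterisk on the 12 members missing from rimonabant replicate 1. EIF5A stands highest at about 339.7 FPKM, the points of most members nearly coincide, and many neighbours overlap.

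Between TXX-1-10 and vehicle, 6 of the 38 members were higher and 16 lower at an adjusted p under 0.05 by edgeR's quasi-likelihood test over 4236 genes. Of all those genes 30.5% were higher and 43.8% lower, so the share of members that were lower (42.1%) was near the background and the share that were higher (15.8%) was under it. Only EIF1 changed 2-fold (1 of 38), against 11.8% of all genes tested. The median log2 fold change of the members was -0.15 and that of all genes was -0.095. Between rimonabant and vehicle, 4 members were higher and 15 lower (background 23.7% higher and 25.2% lower), with medians of -0.058 for members and -0.020 for all genes. Between TXX-1-10 and rimonabant, 6 were higher and 15 lower (background 25.1% higher and 39.4% lower), with medians of -0.062 and -0.077.

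The 12 members missing from rimonabant replicate 1 were tested in a fit of the other 8 libraries over 9369 genes, in which rimonabant has 2 libraries. Between TXX-1-10 and vehicle 5 of them were higher and 4 lower (background 34.7% higher and 40.6% lower). Between rimonabant and vehicle 4 were higher and 2 lower (background 23.7% higher and 22.8% lower). Between TXX-1-10 and rimonabant 1 was higher and 3 lower (background 26.7% higher and 33.9% lower). Medians of the 12 members beside those of all genes were 0.061 and -0.042 for TXX-1-10 against vehicle, 0.023 and 0.0030 for rimonabant against vehicle, and -0.068 and -0.036 between the compounds.

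The split between higher and lower depended on the scaling of the libraries. With DESeq2's size factors the median of all genes for TXX-1-10 against vehicle moved from -0.095 to 0.0056, a shift of over 0.1, and the split of the 38 members from 6 higher and 16 lower to 10 higher and 15 lower. It was 9 and 15 with median scaling and also with a gene length correction plus the replicate block. For TXX-1-10 against rimonabant the split moved from 6 higher and 15 lower to 10 and 13 with TMM, DESeq2 or median scaling, to 12 and 13 with a correction for gene length, and to 11 and 11 with that correction and the block. Without both libraries that stood apart, the splits for TXX-1-10 against vehicle, rimonabant against vehicle and TXX-1-10 against rimonabant were 6 and 25, 4 and 19, and 8 and 16.

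**Figure D2:**
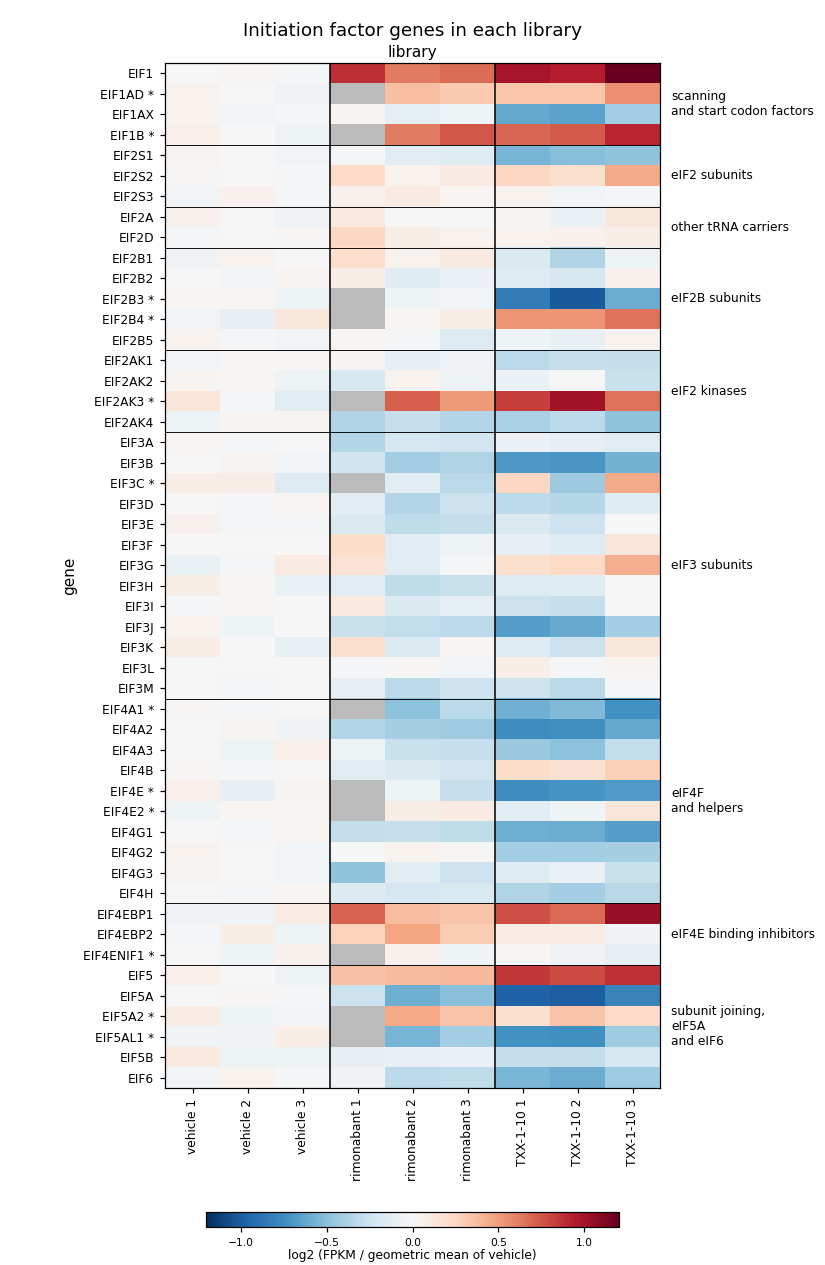
The log2 ratio of each member's FPKM to its geometric mean in vehicle-treated cells, with 1 column per library and members grouped by role (red higher, blue lower, grey not listed). EIF1, EIF1B, EIF5, EIF4EBP1 and EIF2AK3 are red in all treated libraries where they are listed, EIF5A, EIF4A2, EIF4G1 and EIF3B are blue in all of them, and rimonabant replicate 1 and TXX-1-10 replicate 3 differ from their fellow replicates in several eIF3 genes.

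Among the factors of scanning, EIF1 rose most. EIF1 (chr17:41688885-41692668, + strand, GRCh38) encodes eIF1, which sits near the ribosome's P site and opposes starts at poor codons. Its FPKM was 111, 113 and 109 in vehicle, 206, 171 and 177 in rimonabant, and 221, 214 and 258 in TXX-1-10, so the 3 groups did not overlap and TXX-1-10 replicate 3 was the highest. The counts behind these values were 6871, 7051 and 6823, then 13014, 11683 and 11877, then 15427, 14238 and 17235. EIF1 was 2.08-fold higher with TXX-1-10 (1.06 ± 0.09 in log2, SE, edgeR adjusted p = 1.69e-06), 1.66-fold higher with rimonabant (0.73 ± 0.09, edgeR adjusted p = 0.000108), and higher with TXX-1-10 than with rimonabant (0.32 ± 0.09, edgeR adjusted p = 0.00777). Without TXX-1-10 replicate 3 the log2 fold change against vehicle was 0.97, which passed the test and is under the 2-fold mark.

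EIF1B (chr3:40309684-40312424, + strand), a paralogue whose product is close to eIF1, moved in the same direction. Its FPKM was 22.2, 21.3 and 20.4 in vehicle, 32.7 and 35.6 in rimonabant replicates 2 and 3, and 34.5, 35.5 and 40.2 in TXX-1-10. Treated libraries were all above vehicle, and the ranges of the 2 compounds overlapped. The log2 fold change was 0.78 ± 0.07 with TXX-1-10 (edgeR adjusted p = 6.59e-07) and 0.68 ± 0.08 with rimonabant (edgeR adjusted p = 3.68e-05), while the difference between the compounds was 0.10 with a 95% interval of -0.06 to 0.27 and passed with a correction for gene length (0.16). How reads shared by this pair were counted is not given, so both are uncertain to that extent.

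EIF1AX (chrX:20124518-20141844, - strand), which encodes the partner eIF1A, went the other way and with TXX-1-10 only. Its FPKM was 22.3, 21.1 and 21.3 in vehicle, 22.0, 19.9 and 20.8 in rimonabant, and 14.1, 13.8 and 16.1 in TXX-1-10. TXX-1-10 libraries lay below all others and rimonabant overlapped vehicle. On the log2 scale the change was -0.55 ± 0.07 against vehicle (edgeR adjusted p = 3.14e-05) and -0.51 ± 0.07 against rimonabant (edgeR adjusted p = 9.16e-05). EIF1AD, named for an eIF1A-like domain, was higher with TXX-1-10 (0.41, edgeR adjusted p = 0.000183) and with rimonabant (0.34, edgeR adjusted p = 0.00412). EIF1AX has a near-identical copy on the Y chromosome, EIF1AY, so its counts are uncertain to that extent.

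Of the subunits of eIF2, the alpha subunit fell with TXX-1-10. EIF2S1 (chr14:67359997-67386516, + strand) encodes that subunit, which carries the phosphorylation site. Its FPKM was 69.0, 67.8 and 66.0 in vehicle, 66.8, 62.1 and 61.3 in rimonabant, and 45.9, 47.6 and 48.5 in TXX-1-10, so TXX-1-10 lay apart from the other treatments, which overlapped. The change in log2 was -0.51 ± 0.05 against vehicle (edgeR adjusted p = 5.71e-06) and -0.42 ± 0.05 against rimonabant (edgeR adjusted p = 4.09e-05), and rimonabant against vehicle gave -0.09 (edgeR adjusted p = 0.148), which passed without rimonabant replicate 1 (-0.13, edgeR adjusted p = 0.0463) and with a correction for gene length (-0.10). EIF2S2, the beta subunit, was higher with TXX-1-10 than with vehicle (0.30 ± 0.07, edgeR adjusted p = 0.00361), and its difference from rimonabant (0.18, edgeR adjusted p = 0.0554) passed without rimonabant replicate 1 (0.23, edgeR adjusted p = 0.0173) or TXX-1-10 replicate 2 (0.23), and with all libraries under TMM, DESeq2 or median scaling (0.26) or a correction for gene length (0.33). EIF2S3, the gamma subunit, which binds GTP and the tRNA, had a log2 fold change of -0.0007 with TXX-1-10 (95% interval -0.10 to 0.10) and 0.06 with rimonabant. EIF2A and EIF2D, which can bring tRNA to the ribosome without eIF2, had log2 fold changes of 0.03 and 0.05 with TXX-1-10 and did not pass, although with DESeq2's or median scaling they did (0.13 and 0.15 with either). With DESeq2 EIF2S3 also passed with TXX-1-10 (0.10).

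The exchange factor eIF2B, which recharges eIF2 with GTP, had members that moved apart under TXX-1-10. EIF2B3 (chr1:44850522-44986722, - strand) and EIF2B4 (chr2:27364352-27370486, - strand) encode its gamma and delta subunits. EIF2B3 was at 10.0, 10.0 and 9.52 FPKM in vehicle, 9.43 and 9.62 in rimonabant replicates 2 and 3, and 5.51, 4.91 and 6.53 in TXX-1-10. EIF2B4 was at 7.53, 7.19 and 8.48 FPKM in vehicle, 7.83 and 8.16 in rimonabant, and 11.1, 11.1 and 12.1 in TXX-1-10. In both genes rimonabant overlapped vehicle and TXX-1-10 lay outside, below for EIF2B3 and above for EIF2B4. EIF2B3 fell by 0.80 on the log2 scale against vehicle (SE 0.09, edgeR adjusted p = 6.32e-06) and by 0.75 against rimonabant (SE 0.10, edgeR adjusted p = 4.86e-05). EIF2B4 rose by 0.56 against vehicle (SE 0.07, edgeR adjusted p = 1.24e-05) and by 0.52 against rimonabant (SE 0.08, edgeR adjusted p = 0.000127). The alpha subunit gene EIF2B1 was lower with TXX-1-10 than with rimonabant (-0.31, edgeR adjusted p = 0.00472). Its difference from vehicle (-0.19, edgeR adjusted p = 0.0434) was lost without any 1 of the vehicle libraries, rimonabant replicate 3, TXX-1-10 replicate 1 or TXX-1-10 replicate 2 (-0.21 to -0.11, edgeR adjusted p = 0.0617 to 0.158), and also with TMM, DESeq2, median scaling or a correction for gene length. EIF2B2 and EIF2B5, the beta and epsilon subunits, did not pass in any comparison, but without TXX-1-10 replicate 3 EIF2B2 passed against vehicle (-0.17, edgeR adjusted p = 0.0418).

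The 4 kinases of eIF2 respond to different stresses and did not move together. EIF2AK3 (chr2:88556741-88627576, - strand) encodes PERK, the kinase of the endoplasmic reticulum, and it rose with both compounds. Its FPKM was 3.44, 3.09 and 2.84 in vehicle, 5.12 and 4.44 in rimonabant replicates 2 and 3, and 5.55, 6.25 and 4.90 in TXX-1-10, on counts of 266 to 625. Treated libraries were all above vehicle and the compounds overlapped. The log2 fold change was 0.83 ± 0.11 with TXX-1-10 (edgeR adjusted p = 1.56e-05) and 0.61 ± 0.12 with rimonabant (edgeR adjusted p = 0.00138), with a difference of 0.22 between the compounds (95% interval -0.03 to 0.47) that passed without TXX-1-10 replicate 3 (0.30, edgeR adjusted p = 0.00461). EIF2AK1, the heme-regulated kinase, was lower with TXX-1-10 than with vehicle (-0.30, edgeR adjusted p = 0.000212) and than with rimonabant (-0.26, edgeR adjusted p = 0.000708). EIF2AK4, which encodes GCN2, the sensor of uncharged tRNA, was lower with TXX-1-10 (-0.40, edgeR adjusted p = 8.78e-05) and with rimonabant (-0.33, edgeR adjusted p = 0.000862). EIF2AK2, which encodes PKR, the sensor of double-stranded RNA, was at 10.96 to 13.6 FPKM in all libraries and did not pass in any comparison.

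**Figure D3:**
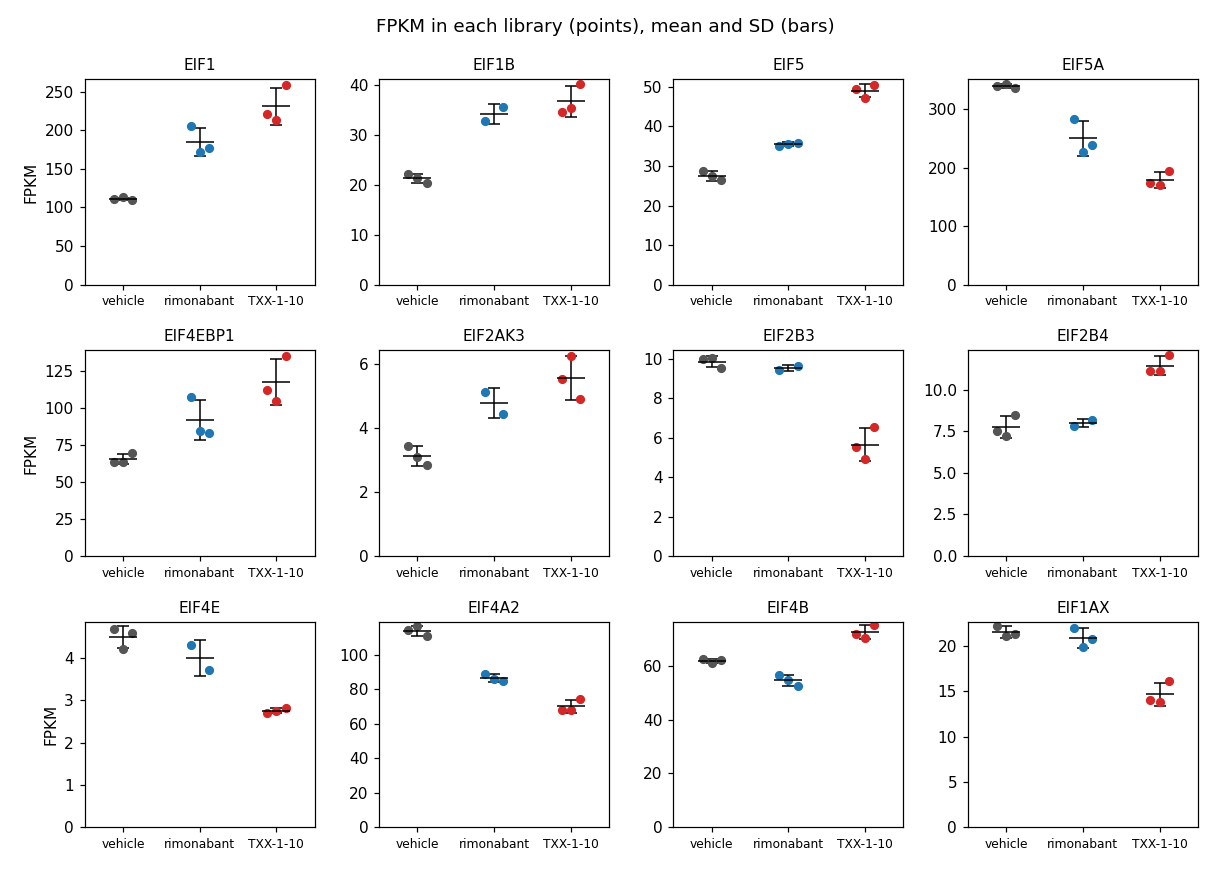
The FPKM of single members in each library, grouped by treatment, with 1 point per library and a line at each mean. EIF1 rises from 109 to 113 FPKM in vehicle to 214 to 258 FPKM in TXX-1-10, and EIF5A falls from 337 to 343 FPKM to 171 to 195 FPKM, with rimonabant between them in both.

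Of the 12 subunits of eIF3 listed for all libraries, 1 was higher and 3 lower with TXX-1-10, and 6 were lower with rimonabant (of all genes 30.5% higher and 43.8% lower with TXX-1-10, and 25.2% lower with rimonabant). EIF3B (chr7:2354086-2380745, + strand), a core subunit on which others assemble, differed most. Its FPKM was 47.1, 48.1 and 46.1 in vehicle, 39.9, 35.2 and 36.7 in rimonabant, and 29.1, 29.1 and 31.8 in TXX-1-10, with no overlap between groups. On the log2 scale the change was -0.65 ± 0.06 with TXX-1-10 (edgeR adjusted p = 3.87e-06), -0.34 ± 0.06 with rimonabant (edgeR adjusted p = 0.00118) and -0.31 ± 0.06 between them (edgeR adjusted p = 0.00106). EIF3J, a loosely bound subunit, gave -0.55, -0.29 and -0.26 for these 3 comparisons and passed in all, the last lost with a gene length correction plus the block (-0.13, edgeR adjusted p = 0.0543). EIF3D, a subunit that can bind the cap of some mRNAs, was lower with TXX-1-10 (-0.27, edgeR adjusted p = 0.00492) and rimonabant (-0.24, edgeR adjusted p = 0.0136).

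EIF3A, the largest core subunit, and EIF3E were lower with rimonabant (-0.26 and -0.25) and did not pass with TXX-1-10. EIF3A was higher with TXX-1-10 than with rimonabant (0.17, edgeR adjusted p = 0.0153), which was lost without TXX-1-10 replicate 1 (0.15, edgeR adjusted p = 0.0584). EIF3E and EIF3H passed in that comparison with TMM, DESeq2 or median scaling (0.20 and 0.22). EIF3H was also lower with rimonabant (-0.23, edgeR adjusted p = 0.0159), and lost the call without vehicle replicate 1 or 2 or rimonabant replicate 2 or 3 (-0.23 to -0.20, edgeR adjusted p = 0.0525 to 0.0667). EIF3G was the only subunit higher with TXX-1-10 (0.29 against vehicle, edgeR adjusted p = 0.0131), which was lost without vehicle replicate 1 (0.25, edgeR adjusted p = 0.0554). Its difference from rimonabant (0.28, edgeR adjusted p = 0.0195) was lost without rimonabant replicate 2, rimonabant replicate 3 or TXX-1-10 replicate 3 (0.20 to 0.26, edgeR adjusted p = 0.0529 to 0.0676). EIF3F, EIF3I, EIF3K, EIF3L and EIF3M did not pass in the main fit of all 9 libraries. EIF3L passed with a correction for gene length, as higher with TXX-1-10 than with vehicle (0.13) and than with rimonabant (0.15). EIF3M passed with a mean FPKM of at least 5, as lower with rimonabant than with vehicle (-0.22, edgeR adjusted p = 0.0499). With TMM, DESeq2 or median scaling EIF3L passed as higher with TXX-1-10 than with vehicle (0.13) and than with rimonabant (0.13), and EIF3M as lower with rimonabant than with vehicle (-0.21, -0.20 and -0.20). With limma on log2(FPKM + 1) EIF3M was lower with rimonabant (-0.21) and with TXX-1-10 (-0.19). The counts for eIF3 moved most with the libraries that stood apart. For TXX-1-10 against vehicle, 7 of the 12 subunits were lower without TXX-1-10 replicate 3, now with EIF3E, EIF3H, EIF3I and EIF3M (-0.21, -0.15, -0.27 and -0.28), 5 without rimonabant replicate 1, and 10 lower with 1 higher without both. For rimonabant against vehicle, 9 were lower without both. The shares of all genes called in these settings were not counted, so these eIF3 counts have no background beside them. EIF3C, in the fit of 8 libraries, ranged from 4.73 to 8.75 FPKM within TXX-1-10 and did not pass with all 8, and without TXX-1-10 replicate 2 it was higher than in vehicle (0.35, edgeR adjusted p = 0.00395) and than in rimonabant (0.57, edgeR adjusted p = 0.000359).

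Of the 7 genes of eIF4F and its helpers listed for all libraries, 5 were lower and 1 higher with TXX-1-10, and 6 were lower with rimonabant. Of all genes tested, 43.8% were lower with TXX-1-10 and 25.2% with rimonabant. Their summed level was 680.3 ± 3.53 FPKM in vehicle, 587 ± 7.42 in rimonabant and 515 ± 8.73 in TXX-1-10 (SD, n = 3), and the ranges did not overlap. EIF4G1 gave log2 fold changes of -0.62 with TXX-1-10 (edgeR adjusted p = 9.13e-07), -0.29 with rimonabant (edgeR adjusted p = 0.000708) and -0.33 between them (edgeR adjusted p = 0.000159). EIF4A2 (chr3:186783205-186789900, + strand) encodes a form of the helicase eIF4A. Its FPKM was 114, 116 and 111 in vehicle, 88.9, 86.0 and 84.7 in rimonabant, and 67.7, 68.2 and 74.4 in TXX-1-10, with no overlap between groups. Its log2 fold change was -0.70 ± 0.05 with TXX-1-10 (edgeR adjusted p = 8.98e-07), -0.39 ± 0.05 with rimonabant (edgeR adjusted p = 0.000228) and -0.30 ± 0.05 between them (edgeR adjusted p = 0.000581). Other annotated genes overlap 17.9% of its exon bases.

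EIF4E (chr4:98871684-98930637, - strand), which encodes the cap-binding protein itself, fell with TXX-1-10. Its FPKM was 4.70, 4.22 and 4.61 in vehicle, 4.32 and 3.71 in rimonabant replicates 2 and 3, and 2.69, 2.76 and 2.82 in TXX-1-10, on counts of 714 to 1142. TXX-1-10 lay below all others and rimonabant overlapped vehicle. The change in log2 was -0.71 ± 0.07 against vehicle (edgeR adjusted p = 1.47e-06) and -0.54 ± 0.08 against rimonabant (edgeR adjusted p = 7.53e-05). Rimonabant against vehicle gave -0.17 (edgeR adjusted p = 0.0928), which passed without rimonabant replicate 2 (-0.28, edgeR adjusted p = 0.0375) and without TXX-1-10 replicate 3 (-0.17, edgeR adjusted p = 0.0236). EIF4E2, a related cap-binding protein that does not join eIF4F in the usual way, did not pass in any comparison, although without TXX-1-10 replicate 3 it was lower with TXX-1-10 than with rimonabant (-0.18, edgeR adjusted p = 0.0162).

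EIF4A1 (chr17:7572706-7579005, + strand), the main helicase gene of many cells, was listed at 8.66, 8.42 and 8.56 FPKM in vehicle, 6.07 and 6.81 in rimonabant replicates 2 and 3, and 5.73, 5.91 and 5.18 in TXX-1-10, all groups apart. Other annotated genes overlap 48.6% of its exon bases and it has near-identical copies, so its level is uncertain. It was lower with TXX-1-10 (-0.61 ± 0.07, edgeR adjusted p = 6.43e-06) and with rimonabant (-0.41 ± 0.08, edgeR adjusted p = 0.00129). The difference between the compounds (-0.20, edgeR adjusted p = 0.0461) was lost without any 1 of the vehicle libraries, rimonabant replicate 3, TXX-1-10 replicate 1 or TXX-1-10 replicate 3 (-0.22 to -0.11, edgeR adjusted p = 0.0637 to 0.367). It was also lost with TMM, DESeq2 or median scaling (-0.15), a correction for gene length (-0.15), the replicate block (-0.21) and the fit of only these groups (-0.20). EIF4A3, the helicase of the exon junction complex, was lower with TXX-1-10 than with vehicle (-0.41, edgeR adjusted p = 0.00052). Its calls for rimonabant against vehicle (-0.20, edgeR adjusted p = 0.0476), where the FPKM ranges overlapped, and for TXX-1-10 against rimonabant (-0.21, edgeR adjusted p = 0.0267) were lost without single libraries. For the first these were any vehicle library, rimonabant replicate 2 or 3 or TXX-1-10 replicate 1 (edgeR adjusted p = 0.0637 to 0.162), and for the second rimonabant replicate 1 or TXX-1-10 replicate 1 or 2 (edgeR adjusted p = 0.0825 to 0.0938). The first was also lost with the replicate block (-0.20), and the second with TMM, DESeq2 or median scaling (-0.13, -0.12 and -0.13), a correction for gene length (-0.12) and the fit of only these groups (-0.21). EIF4H was lower in all comparisons, with log2 fold changes of -0.37, -0.18 and -0.19, and lost the last with a correction for gene length (-0.06, edgeR adjusted p = 0.288).

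EIF4G2 (chr11:10797050-10809110, - strand) encodes a scaffold without the eIF4E-binding part, used in cap-independent starts, and it was lower with TXX-1-10. Its FPKM was 90.7, 87.7 and 85.9 in vehicle, 88.6, 90.7 and 88.7 in rimonabant, and 66.3, 66.3 and 66.8 in TXX-1-10, so rimonabant overlapped vehicle and TXX-1-10 lay below. The log2 fold change was -0.41 ± 0.04 against vehicle (edgeR adjusted p = 1.46e-05) and -0.43 ± 0.04 against rimonabant (edgeR adjusted p = 1.73e-05), with 0.02 for rimonabant against vehicle (95% interval -0.08 to 0.12). EIF4G3, another scaffold, was lower with rimonabant (-0.28, edgeR adjusted p = 0.0227), which was lost without vehicle replicate 1 or 2 (-0.26 and -0.27, edgeR adjusted p = 0.0714 and 0.0632). Its value for TXX-1-10 against vehicle (-0.16, edgeR adjusted p = 0.107) passed without rimonabant replicate 1 (edgeR adjusted p = 0.0243).

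EIF4B (chr12:53006158-53042209, + strand), which stimulates the helicase eIF4A, was the only member that passed in opposite directions with the compounds. Its FPKM was 62.5, 60.9 and 62.1 in vehicle, 56.4, 54.6 and 52.6 in rimonabant, and 71.8, 70.4 and 75.2 in TXX-1-10, so rimonabant lay below vehicle and TXX-1-10 above it, with no overlap. On the log2 scale the change was 0.23 ± 0.05 with TXX-1-10 (edgeR adjusted p = 0.0014) and -0.18 ± 0.05 with rimonabant (edgeR adjusted p = 0.0106), and TXX-1-10 against rimonabant gave 0.41 ± 0.05 (edgeR adjusted p = 3.68e-05). Without rimonabant replicate 3 the call for rimonabant against vehicle was lost (-0.15, edgeR adjusted p = 0.0517).

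The 4E-binding proteins, which keep eIF4E from eIF4G, differed between the compounds. EIF4EBP1 was at 63.4, 63.4 and 69.5 FPKM in vehicle, 107, 84.3 and 83.1 in rimonabant, and 112, 105 and 135 in TXX-1-10. Treated libraries were all above vehicle, and rimonabant replicate 1 lay within the range of TXX-1-10. The change in log2 was 0.84 ± 0.12 with TXX-1-10 (edgeR adjusted p = 8.24e-05) and 0.48 ± 0.12 with rimonabant (edgeR adjusted p = 0.00677). The difference between the compounds (0.36, edgeR adjusted p = 0.0189) was lost without rimonabant replicate 2, rimonabant replicate 3 or TXX-1-10 replicate 3 (0.25 to 0.30, edgeR adjusted p = 0.05 to 0.0758). EIF4EBP2, the second binding protein, was higher with rimonabant only (0.35 ± 0.07, edgeR adjusted p = 0.00171), and TXX-1-10 lay 0.31 below rimonabant on the log2 scale (edgeR adjusted p = 0.00225) and 0.04 from vehicle (95% interval -0.10 to 0.19). EIF4ENIF1, which carries eIF4E into the nucleus and to sites of mRNA decay, had log2 fold changes of -0.04 and -0.0013 and did not pass. Summed over EIF4EBP1 and EIF4EBP2, the level was 82.7 ± 3.02 FPKM in vehicle, 113 ± 12.6 in rimonabant and 135 ± 14.8 in TXX-1-10.

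**Figure D4:**
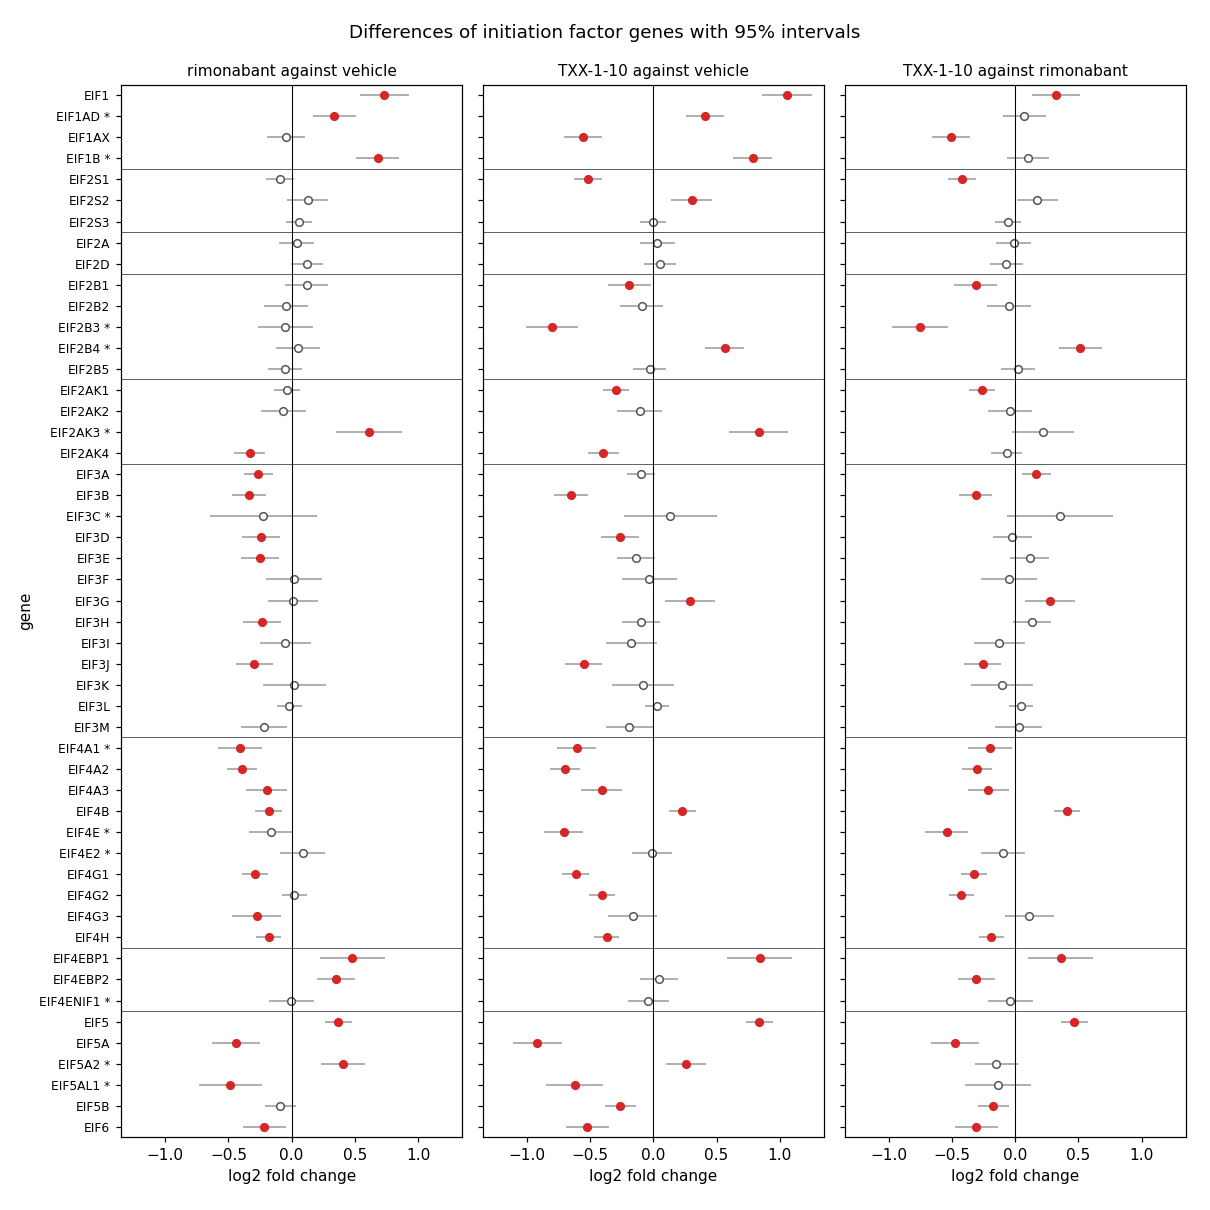
The log2 fold change of each tested member by role, for rimonabant against vehicle, TXX-1-10 against vehicle and TXX-1-10 against rimonabant. Bars give the 95% interval, and an asterisk marks members tested in 8 libraries. Filled red points passed at an edgeR adjusted p under 0.05, and open points did not. EIF1 (1.06), EIF4EBP1 (0.84) and EIF5 (0.84) lie farthest above 0 with TXX-1-10 and EIF5A (-0.92) farthest below, and the values with rimonabant are smaller for these members.

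At the last steps EIF5 and EIF5A moved in opposite directions. EIF5 (chr14:103333544-103345025, + strand) encodes the factor that triggers GTP hydrolysis by eIF2 once the start codon is found. Its FPKM was 28.7, 27.4 and 26.4 in vehicle, 35.0, 35.7 and 35.8 in rimonabant, and 49.4, 47.3 and 50.6 in TXX-1-10, with close replicates and no overlap between groups. The log2 fold change was 0.84 ± 0.05 with TXX-1-10 (edgeR adjusted p = 1.23e-07), 0.37 ± 0.05 with rimonabant (edgeR adjusted p = 0.000192) and 0.47 ± 0.05 between them (edgeR adjusted p = 1.58e-05). EIF5B, the GTPase that joins the large subunit, was lower with TXX-1-10 than with vehicle (-0.26, edgeR adjusted p = 0.0014). Its difference from rimonabant (-0.17, edgeR adjusted p = 0.0177) was lost without rimonabant replicate 3, TXX-1-10 replicate 1 or TXX-1-10 replicate 2 (-0.17 to -0.16, edgeR adjusted p = 0.0559 to 0.0653), and with TMM, DESeq2 or median scaling (-0.09). EIF6 was lower with TXX-1-10 (-0.52, edgeR adjusted p = 0.000132). Its call with rimonabant (-0.22, edgeR adjusted p = 0.0402) was lost without any vehicle library, rimonabant replicate 2 or 3 or TXX-1-10 replicate 1 (-0.23 to -0.17, edgeR adjusted p = 0.0574 to 0.144), and with the replicate block (-0.22).

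EIF5A (chr17:7306999-7312463, + strand), the member with the highest level, fell most with TXX-1-10. Its FPKM was 339.7, 343 and 337 in vehicle, 284, 227 and 239.7 in rimonabant, and 173, 171 and 195 in TXX-1-10. Groups did not overlap, and rimonabant replicate 1 was the nearest treated library to vehicle. EIF5A fell 1.89-fold with TXX-1-10 (-0.92 ± 0.09 in log2, edgeR adjusted p = 4.39e-06) and 1.36-fold with rimonabant (-0.44 ± 0.09, edgeR adjusted p = 0.002), and lay 0.48 lower with TXX-1-10 than with rimonabant on the log2 scale (edgeR adjusted p = 0.000698). EIF5AL1 (chr10:79512601-79516440, + strand), whose sequence is nearly that of EIF5A, was at 3.60, 3.61 and 3.92 FPKM in vehicle, 2.52 and 2.78 in rimonabant replicates 2 and 3, and 2.24, 2.22 and 2.76 in TXX-1-10. Its log2 fold changes against vehicle were -0.62 (edgeR adjusted p = 0.00015) and -0.48 (edgeR adjusted p = 0.00496), the second lost without rimonabant replicate 2 (-0.41, edgeR adjusted p = 0.0606), and reads of EIF5A assigned to it cannot be told apart. EIF5A2 (chr3:170888415-170908693, - strand), the paralogue that is made in few normal tissues, went the other way. It was at 5.15, 4.69 and 4.74 FPKM in vehicle, 6.70 and 6.17 in rimonabant, and 5.56, 6.15 and 5.70 in TXX-1-10, all treated libraries above vehicle. Its log2 fold change was 0.26 ± 0.07 with TXX-1-10 (edgeR adjusted p = 0.00667) and 0.40 ± 0.08 with rimonabant (edgeR adjusted p = 0.00151).

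TXX-1-10 and rimonabant were compared with the same vehicle libraries, so their values are set side by side. The direct test of TXX-1-10 against rimonabant, at doses that are not given, found EIF1, EIF4EBP1 and EIF5 higher in both comparisons with vehicle and higher again with TXX-1-10. It found 8 members, EIF3B, EIF3J, EIF4A2, EIF4A3, EIF4G1, EIF4H, EIF5A and EIF6, lower at each step, with the limits given above for single calls. In 6 of the 38 members, EIF1AX, EIF2AK1, EIF2B1, EIF2S1, EIF4G2 and EIF5B, TXX-1-10 was lower than both vehicle and rimonabant while rimonabant against vehicle did not pass. In the fit of 8 libraries EIF2B3 and EIF4E did so too, and EIF2B4 was higher with TXX-1-10 than in both, as EIF3G was among the 38. EIF4A1, in that fit, was lower at each step, with the limits given above. Of all 4236 genes in the fit of 9 libraries, 43.8% were lower and 30.5% higher with TXX-1-10 than with vehicle. For rimonabant against vehicle these shares were 25.2% and 23.7%, and between the compounds 39.4% and 25.1%. The share of all genes with the same joint pattern was not counted.

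The proteins that work with these factors were taken from lists, and the counts below are over both fits. These lists were chosen with earlier results of these data known. Their counts are therefore a description and cannot show that a list differs from all genes. Of all genes in the fits of 9 and 8 libraries, 30.5% and 34.7% were higher and 43.8% and 40.6% lower with TXX-1-10, and 23.7% and 23.7% were higher and 25.2% and 22.8% lower with rimonabant. Of 12 partners of the cap complex, 7 were higher and 5 lower with TXX-1-10, and 6 were higher and 4 lower with rimonabant. MKNK2, a kinase that phosphorylates eIF4E, rose by 1.46 on the log2 scale with TXX-1-10 (edgeR adjusted p = 8.02e-09) and by 0.20 with rimonabant (edgeR adjusted p = 0.0161). PDCD4, which keeps eIF4A from eIF4G, rose by 1.26 (edgeR adjusted p = 1.79e-08) and 0.59 (edgeR adjusted p = 2.86e-05). NCBP1, the large subunit of the nuclear cap-binding complex, fell by 0.90 (edgeR adjusted p = 3.64e-08) and 0.31 (edgeR adjusted p = 0.000326). Of 13 tested helpers of the ribosome and eIF2, 9 were lower and 1 higher with TXX-1-10, against 3 lower and 1 higher with rimonabant, a share near that of all genes for those lower. ABCE1, which splits ribosomes for reuse, fell by 0.97 with TXX-1-10 (edgeR adjusted p = 2.87e-08), and BZW2, which resembles eIF5 and competes with it, by 0.92 (edgeR adjusted p = 4.67e-07).

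Of 9 genes for subunits of the eIF2 phosphatase and for stress factors that act after eIF2 phosphorylation, 6 were higher and 2 lower with TXX-1-10, and 6 were higher and 1 lower with rimonabant. PPP1R15A, the inducible subunit that directs the phosphatase to eIF2, rose by 1.63 (edgeR adjusted p = 2.74e-09) and 1.15 (edgeR adjusted p = 4.15e-07). PPP1R15B, the constant subunit, rose by 0.55 and 0.27. ATF4, the transcription factor whose mRNA is translated better when eIF2 is phosphorylated, rose by 0.62 (edgeR adjusted p = 7.67e-05) and 0.58 (edgeR adjusted p = 0.000376), and its difference between the compounds was 0.03 (edgeR adjusted p = 0.741). With TXX-1-10 DDIT3 and TRIB3 rose most of these (3.49 and 3.48), and with rimonabant they rose by 0.97 and 1.28. Both were higher with TXX-1-10 than with rimonabant (2.52 and 2.20, edgeR adjusted p = 2.48e-09 and 1.78e-08). ATF3 rose by 1.92 and 1.23. The 2 lower with TXX-1-10 were PPP1CC (-0.74) and PPP1CB (-0.17). This list was also chosen with earlier results of these data known, so its counts are a description only. Phosphorylation was not measured. Of 11 tested genes of upstream signalling through mTOR, 3 were higher and 3 lower with TXX-1-10, and 1 was higher and 1 lower with rimonabant. SESN2, an inhibitor of that pathway, rose by 3.01 and 1.93, while DDIT4, another inhibitor, rose by 0.18 with TXX-1-10 (edgeR adjusted p = 0.0423) and fell by 0.72 with rimonabant (edgeR adjusted p = 3.73e-05). Of 8 tested elongation and termination factors, 2 were higher and 2 lower with TXX-1-10 and 2 lower with rimonabant, and EEF2K, the kinase that slows elongation, fell by 0.89 with TXX-1-10 (edgeR adjusted p = 3.48e-07).

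Promoters of the members were searched for 3 motifs on both strands, in the 300 bases from 250 before to 50 after the start that RefSeq gives (GRCh38.p14). A promoter of that length was found for 45 of the 54 members, 42 of them listed for all libraries or all but rimonabant replicate 1. The E-box CACGTG was in 11 of these 42 (26.2%), against 13.6% of all genes so listed, and in 12 of the 45 (26.7%), against 8.77% of all genes. TGATGNAA, the core of the element that ATF4 binds with C/EBP proteins, was in 0 of the 42, against 2.51% of genes so listed, and in 1 of the 45, the untested EIF4E3 (2.22%, against 4.46% of all genes). The cyclic AMP element TGACGTCA was in 0 of the 42, against 4.18% of genes so listed, and in 0 of the 45, against 2.25% of all genes. EIF4E and EIF4G1, 2 genes of the cap complex that were lower with TXX-1-10, each held 2 E-boxes. EIF5A2, which was higher with both compounds, also held 2. EIF1B, higher with both compounds, and EIF4B, higher with TXX-1-10 and lower with rimonabant, held 1. The sites of these genes are shown with 12 bases on either side on the strand of the gene, with the E-box in capitals. Not shown are those of EIF2B3, EIF4A3 and EIF4H, which were lower with TXX-1-10. Those of EIF2AK2, EIF3F and EIF3K, which did not pass in any comparison, are not shown either.
EIF4E (chr4:98929341-98929370, - strand, 225 bases before the start): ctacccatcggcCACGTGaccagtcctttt
EIF4E (chr4:98929188-98929217, - strand, 72 bases before the start): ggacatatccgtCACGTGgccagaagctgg
EIF4G1 (chr3:184314450-184314479, + strand, 144 bases before the start): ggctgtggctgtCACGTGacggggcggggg
EIF4G1 (chr3:184314527-184314556, + strand, 67 bases before the start): ccctgcgccggtCACGTGggggcgccggct
EIF5A2 (chr3:170908807-170908836, - strand, 187 bases before the start): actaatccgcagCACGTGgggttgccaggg
EIF5A2 (chr3:170908782-170908811, - strand, 162 bases before the start): cagggcgctcttCACGTGactgggcggagc
EIF1B (chr3:40309641-40309670, + strand, 54 bases before the start): gcgcgggacggtCACGTGggaggggccgcg
EIF4B (chr12:53006422-53006451, + strand, 22 bases before the start): gcccgctataatCACGTGattgcctcatcc
Of the 11 members with an E-box that were tested, 3 were higher, 5 lower and 3 neither with TXX-1-10, and 2 were higher and 4 lower with rimonabant, so members that share the motif did not share a direction. These matches are a description of the letters in the window, and binding was not measured.

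The 4 members missing from more lists had low counts and were not tested. EIF4E3, another member of the cap-binding family, had 44 and 59 reads in vehicle, 91 and 79 in rimonabant and 90, 82 and 104 in TXX-1-10. EIF2S3B, a near-identical copy of EIF2S3, had 33 to 61 reads in the 6 lists that hold it, and EIF4EBP3, the last of the 4E-binding proteins, which shares 73.4% of its exon bases with another annotated gene, had 4 to 9 reads in the 4 lists that hold it. EIF3CL, a near-identical copy of EIF3C, had 34 to 64 reads in 6 lists and 529 in rimonabant replicate 3.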

How the data were processed

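Sequenced RNA of MDA-MB-231 came from 3 libraries each of vehicle, rimonabant and TXX-1-10, with groups taken from the sample labels. Poly(A) RNA was selected with oligo(dT) and libraries were made with the NEBNext Ultra kit. The submitters' processing notes name HISAT2 2.0.5 and featureCounts 1.5.0-p3, without saying whether strand was used. The authors deposited, per gene and library, a whole-number count without normalization. The authors also deposited FPKM, that is, each count scaled by exon length and by 1 total per library. This total was worked out from both columns, and which reads it holds is not given in the sources used here. Coordinates matched GENCODE release 29 for all 27615 genes.

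Counts were tested with edgeR 4.0.16 in R 4.3.3 (estimateDisp, glmQLFit, glmQLFTest), with the FPKM library total as library size and Benjamini-Hochberg adjustment over all genes with a mean FPKM of at least 1. These were 4236 genes in 1 fit of all 9 libraries (common biological coefficient of variation 0.0696), and 9369 genes in a fit without rimonabant replicate 1 for members missing from its list. Standard errors (SE) are approximate, being the log2 fold change over the root of the F statistic. A 2-fold change is a log2 difference of 1 or more in either direction at an adjusted p under 0.05. The members, roles and lists were chosen with earlier results of these data known. Values in every library are given for members changed 2-fold and for the 10 largest log2 fold changes past the threshold in each comparison, EIF1AY is named without values, and other members are given by level, log2 fold change or count. Alternatives were TMM scaling, DESeq2 1.42.0, limma 3.58.1 on log2(FPKM + 1) and log2(FPKM + 0.1), other FPKM filters, fits of 2 groups, a replicate block, a gene length correction (lowess span 0.3) with and without the block, protein-coding genes only, each library left out, both libraries that stood apart left out, and median scaling, which was added after the data were seen. The tests were tested on simulated data. DHPS, SESN1 and EEF1G, named in the lists of partners, were not analysed here.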

Additional observations from a re-analysis of the deposited data

Results flagged for a closer look

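EIF4B was flagged because every rimonabant library lay below vehicle and every TXX-1-10 library above it, and the direct test of the difference passed. The log2 fold change under TXX-1-10 minus that under rimonabant was 0.41 (edgeR adjusted p = 3.68e-05), and it ranged from 0.38 to 0.50 over the alternatives. Its E-box lies 22 bases before the RefSeq start, and 11.9% of its exon bases overlap an annotated gene on the opposite strand. Whether that gene contributes reads was not tested.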

How the results depend on the processing

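Of the recomputed counts and medians that answer a comparison, 378 stayed within a set distance of the main value and 9 moved beyond it. Direction was not part of that check, and some medians among the 378 changed sign. That for TXX-1-10 against rimonabant was -0.0620 in the main fit and 0.0252 with DESeq2 or median scaling. For the 30 log2 fold changes of the 18 members given in every library, 645 values kept direction and threshold and 4 lost the threshold. These 30 were chosen as the 10 largest past the threshold in each comparison, so they say little about smaller changes. The median for TXX-1-10 against vehicle was -0.0503 with DESeq2, -0.0504 with a correction for gene length and -0.0503 with median scaling (main -0.151). The count changed 2-fold was 0 without both libraries that stood apart. In the fit of 8 libraries a mean FPKM of at least 5, which leaves 8 members, gave medians of 0.194 (TXX-1-10 against vehicle) and 0.0673 (rimonabant against vehicle). The causes of the other moves were not tested. With 1 library left out, members past the threshold in the order TXX-1-10 against vehicle, rimonabant against vehicle, TXX-1-10 against rimonabant numbered 20 to 27, 15 to 21 and 18 to 22, and in the fit of 8 libraries 9 to 10, 6 to 7 and 3 to 5. Their medians were -0.208 to -0.120, -0.101 to -0.051 and -0.108 to -0.022, and in the fit of 8 libraries -0.033 to 0.112, -0.015 to 0.062 and -0.074 to -0.036. Changed 2-fold were 0 to 1 with TXX-1-10 against vehicle and 0 to 0 elsewhere. Correlations between libraries with the same number were -0.0925 to 0.0442 where 1 was vehicle. Between rimonabant and TXX-1-10 they were -0.789, 0.800 and -0.590 for replicates 1, 2 and 3. The libraries that stood apart, rimonabant replicate 1 and TXX-1-10 replicate 3, have different numbers and weigh on these values. This check therefore cannot tell whether the numbers pair the libraries. With the replicate block 22, 17 and 21 of the 38 members passed, and 9, 6 and 3 of the 12. The shares of all genes past the threshold were not counted with a library left out or with the block. Of 81 calls over all members tested, 14 were lost without 1 library and 16 under at least 1 alternative of any kind. Members with few reads were not tested, and intervals cover the spread between these libraries only.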

Other observations

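EIF3CL had 529 reads in rimonabant replicate 3 and 34 to 64 in the other 6 lists that hold it, while its near-identical neighbour EIF3C had 661 reads there and 607 to 1124 elsewhere. Within TXX-1-10, EIF3C had 1023, 607 and 1124 reads. The summed level of the 38 members listed for all libraries was 2363 ± 7.89 FPKM in vehicle, 2217 ± 128 in rimonabant and 2110 ± 126 in TXX-1-10 (SD, n = 3). The highest treated libraries were the 2 that stood apart, rimonabant replicate 1 (2364 FPKM) and TXX-1-10 replicate 3 (2252 FPKM). Rimonabant replicate 1 lay within the range of vehicle (2353.7 to 2369 FPKM). The other treated libraries were at 2129 and 2159 FPKM in rimonabant and 2062 and 2015 FPKM in TXX-1-10. Without the libraries that stood apart the compounds did not overlap, with only 2 libraries left in each. Summed levels of other genes were not worked out.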
